A study of Mus musculus with 12 samples.

Results

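The adipocyte genes are 10 genes of fat cells, Pck1, Cidec, Adipoq, Plin1, Lep, Cfd, Fabp4, Lpl, Lipe and Pnpla2, chosen by gene name among the 24080 genes that could be read on the arrays. Of these 17940 carry a reference gene symbol. The rest go by their file or probe name and are also counted in the shares of all genes below. All 10 were found, on 21 probes, and 20 of these probes passed the filter on dim probes, at least 1 for every gene. The samples were RNA of whole ears of mice, labelled as ear skin, on 12 arrays with 60-mer probes and 1 dye. Mice of the strain C57BL/6J lacked Tlr7 (Tlr7-/-), Tlr9 (Tlr9-/-), both (Tlr7-/-Tlr9-/-) or Card14 (Card14-/-), or were wild type (WT). TLR7 and TLR9 are nucleic acid receptors of endosomes, and CARD14 links receptors of keratinocytes to the NF-kB pathway. Ears were taken 4 h after 62.5 mg of cream was applied once, or untreated. The cream held 5% imiquimod (IMQ), a synthetic ligand of TLR7. After IMQ there were 2 arrays each of Tlr7-/-Tlr9-/- and Card14-/- and 1 each of Tlr7-/-, Tlr9-/- and WT, 7 in all. Untreated skin had 1 array of each of the 5 genotypes. Each array held RNA pooled from 6 to 8 mice, and the untreated ears received no cream, so the effects of imiquimod and of the cream base cannot be told apart. The labels do not say that repeat arrays came from separate pools. The p-values of single responses, untreated comparisons and differences from WT measure only the spread between repeat arrays, which may be technical. Those of the average response, of Tlr7 dependence and of the additive fit measure residual spread between genotypes, with repeat arrays averaged.

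Fat cells of the skin lie in the dermis and below it. They take up fatty acids that lipoprotein lipase frees from circulating lipoproteins, store them as triglyceride in a lipid droplet coated by perilipin 1, and release them again by lipolysis. They also secrete the hormones leptin and adiponectin and the complement protease adipsin. Other skin cells express several of these genes too, Lpl in macrophages and Fabp4 in capillary endothelium among them. In RNA of whole skin, fewer fat cells and less of these RNAs per fat cell cannot be told apart.

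On IMQ arrays 60.1% to 63.2% of spots passed the scanner's test against background, and on untreated arrays 62.1% to 65.7% did, with 0 saturated spots. The 75th percentile of the signal before normalization was 527 to 779 on IMQ arrays and 1070 to 1236 on untreated arrays. Slide 2, which was scanned separately, carried the 4 repeat arrays (Card14-/- and Tlr7-/-Tlr9-/- after IMQ), and slide 1 carried the other 8 arrays. The brightest Tlr7 probe read 4.02 to 5.85 on arrays of Tlr7-deficient skin and 7.36 to 8.12 on the others, on the log2 scale. The Card14 probe read 9.63 to 9.89 on Card14-/- arrays and 10.83 to 11.65 on the others. The single Tlr9 probe did not separate its groups, with 10.95 to 11.33 on the 5 arrays labelled as lacking Tlr9 and 11.05 to 11.39 on the others. The labels do not say whether that probe lies in the deleted stretch, so the data do not check the Tlr9 labels. The epidermal keratin Krt14 read 18.17 to 18.32 on all 12 arrays after quantile normalization. That step gives every array the same set of top values, so this narrow range does not check the epidermal content.

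The probes decide what is measured, and some of them are shown here. The brightest probes of Pck1, Cidec, Plin1, Cfd, Fabp4, Lpl and Pnpla2, on which these genes were read, are not among them. Positions are on mm9, the build of the files, and whether a position lies in an exon or an intron was not annotated here. The first set was designed on RefSeq mRNAs and gave the levels of Lep, Adipoq and Lipe below and a second reading of Lpl and Fabp4.
Lep A_66_P113053, chr6:29020910-29020969, plus strand: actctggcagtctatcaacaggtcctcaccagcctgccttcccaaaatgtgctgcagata
Adipoq A_51_P458451, chr16:23157576-23157635, plus strand: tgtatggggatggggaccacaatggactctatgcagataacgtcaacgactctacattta
Lpl A_52_P257812, chr8:71425050-71425109, plus strand: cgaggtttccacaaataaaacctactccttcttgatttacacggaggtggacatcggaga
Fabp4 A_52_P564544, chr3:10208442-10208501, minus strand: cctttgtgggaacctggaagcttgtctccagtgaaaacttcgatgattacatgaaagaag
Lipe A_51_P435363, chr7:26165828-26165887, minus strand: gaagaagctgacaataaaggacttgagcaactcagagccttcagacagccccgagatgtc
The second set was designed on cDNA clones and is shown because it differed from the RefSeq probes of the same gene.
Lpl A_55_P2900592, chr8:71405538-71405597, plus strand: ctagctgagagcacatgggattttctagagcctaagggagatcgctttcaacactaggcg
Plin1 A_55_P2728182, chr7:86873870-86873929, minus strand: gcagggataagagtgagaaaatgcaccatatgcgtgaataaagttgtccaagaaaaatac
Lipe A_55_P2728901, chr7:26167986-26168045, minus strand: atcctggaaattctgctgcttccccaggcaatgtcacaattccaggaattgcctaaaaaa

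At 4 h IMQ moved few of the adipocyte genes together across genotypes. Lpl, the lipase that frees fatty acids at the capillary wall, fell, and Lep, the hormone leptin, rose. These 2 of 10 genes passed the test of the average response, a limma fit with genotype as a block, at a Benjamini-Hochberg adjusted p under 0.05. Of all 37125 probes tested, 10.6% rose and 13.6% fell by the same test, so 1 rise and 1 fall among 10 genes are shares close to that background. Rises made up 43.9% of all calls (3932 rises and 5031 falls), and 54.6% with each array scaled to its 75th percentile instead (4944 rises and 4114 falls). The median response of the 10 genes was -0.02 on the log2 scale, beside -0.07 over all probes. The response had the same sign in all 5 genotypes for 3 of the 10 genes, Lpl, Lep and Fabp4, beside 41.2% of all genes.

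Lpl read 12.55 in Tlr7-/-, 12.10 in Tlr9-/-, 12.70 and 12.71 in Tlr7-/-Tlr9-/-, 12.51 and 12.55 in Card14-/- and 12.68 in WT skin after IMQ. Untreated skin read 12.78 in Tlr7-/-, 12.68 in Tlr9-/-, 13.08 in Tlr7-/-Tlr9-/-, 13.11 in Card14-/- and 13.30 in WT. Every genotype was lower after IMQ than untreated, while the ranges of the IMQ and untreated arrays overlapped between genotypes. Lpl averaged 12.52 ± 0.24 after IMQ and 12.99 ± 0.25 untreated (SD, n = 5 genotypes each), a log2 change of -0.47 (SE 0.09), 1.39-fold lower, with a limma adjusted p of 0.0198. The call was lost without the WT pair (adjusted p 0.0549) or the Tlr9-/- pair (0.0808).

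Lpl had 5 further probes. The other 2 designed on its RefSeq mRNA averaged -0.28 and -0.43, with adjusted p of 0.0573 and 0.0702 in limma. The 3 probes designed on clones or an Ensembl transcript averaged 0.30, 0.12 and -0.05, with limma adjusted p from 0.298 to 0.883. None of the 5 passed the threshold.

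Lep read 8.13 in Tlr7-/-, 8.03 in Tlr9-/-, 8.36 and 8.10 in Tlr7-/-Tlr9-/-, 7.94 and 8.04 in Card14-/- and 8.26 in WT skin after IMQ. Untreated skin read 7.78 in Tlr7-/-, 7.76 in Tlr9-/-, 7.79 in Tlr7-/-Tlr9-/-, 7.87 in Card14-/- and 7.83 in WT. All 7 IMQ arrays lay above all 5 untreated arrays. Lep averaged 8.13 ± 0.12 after IMQ and 7.81 ± 0.04 untreated (SD, n = 5 genotypes each), a log2 change of 0.32 (SE 0.08), 1.25-fold higher, with a limma adjusted p of 0.0386. Leaving out the pair of WT, Tlr7-/-, Tlr9-/- or Tlr7-/-Tlr9-/- ended the call, with adjusted p from 0.0943 to 0.114. The array has 1 probe for Lep.

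Fabp4, the fatty acid binding protein of fat cells and capillaries, read 15.27 in Tlr7-/-, 14.80 in Tlr9-/-, 15.41 and 15.37 in Tlr7-/-Tlr9-/-, 15.25 and 15.23 in Card14-/- and 15.63 in WT skin after IMQ. Untreated skin read 14.94 in Tlr7-/-, 14.62 in Tlr9-/-, 15.05 in Tlr7-/-Tlr9-/-, 15.14 in Card14-/- and 15.09 in WT. Its average response of 0.30 (SE 0.09) missed the threshold in limma at an adjusted p of 0.0617, though it was positive in 5 of 5 genotypes. The other Fabp4 probe averaged 0.03 (limma adjusted p 0.837).

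The remaining 7 genes did not pass. Cidec, a protein that enlarges lipid droplets, averaged 0.31 (SE 0.15) with a limma adjusted p of 0.180. Plin1, the coat protein perilipin 1, averaged -0.26 (SE 0.11, limma adjusted p 0.137). Lipe and Pnpla2, the hormone-sensitive and adipose triglyceride lipases of lipolysis, averaged -0.12 and 0.02. The 95% intervals of these responses ran from -0.35 to 0.11 for Lipe and from -0.18 to 0.23 for Pnpla2. The secreted proteins Adipoq (adiponectin) and Cfd (adipsin) averaged -0.06 and -0.07, with intervals from -0.32 to 0.19 and from -0.39 to 0.25. Pck1, the enzyme that supplies glycerol phosphate for storing fatty acids again, averaged 0.07, with an interval from -0.45 to 0.59, the widest of the 10.

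**Figure D1:**
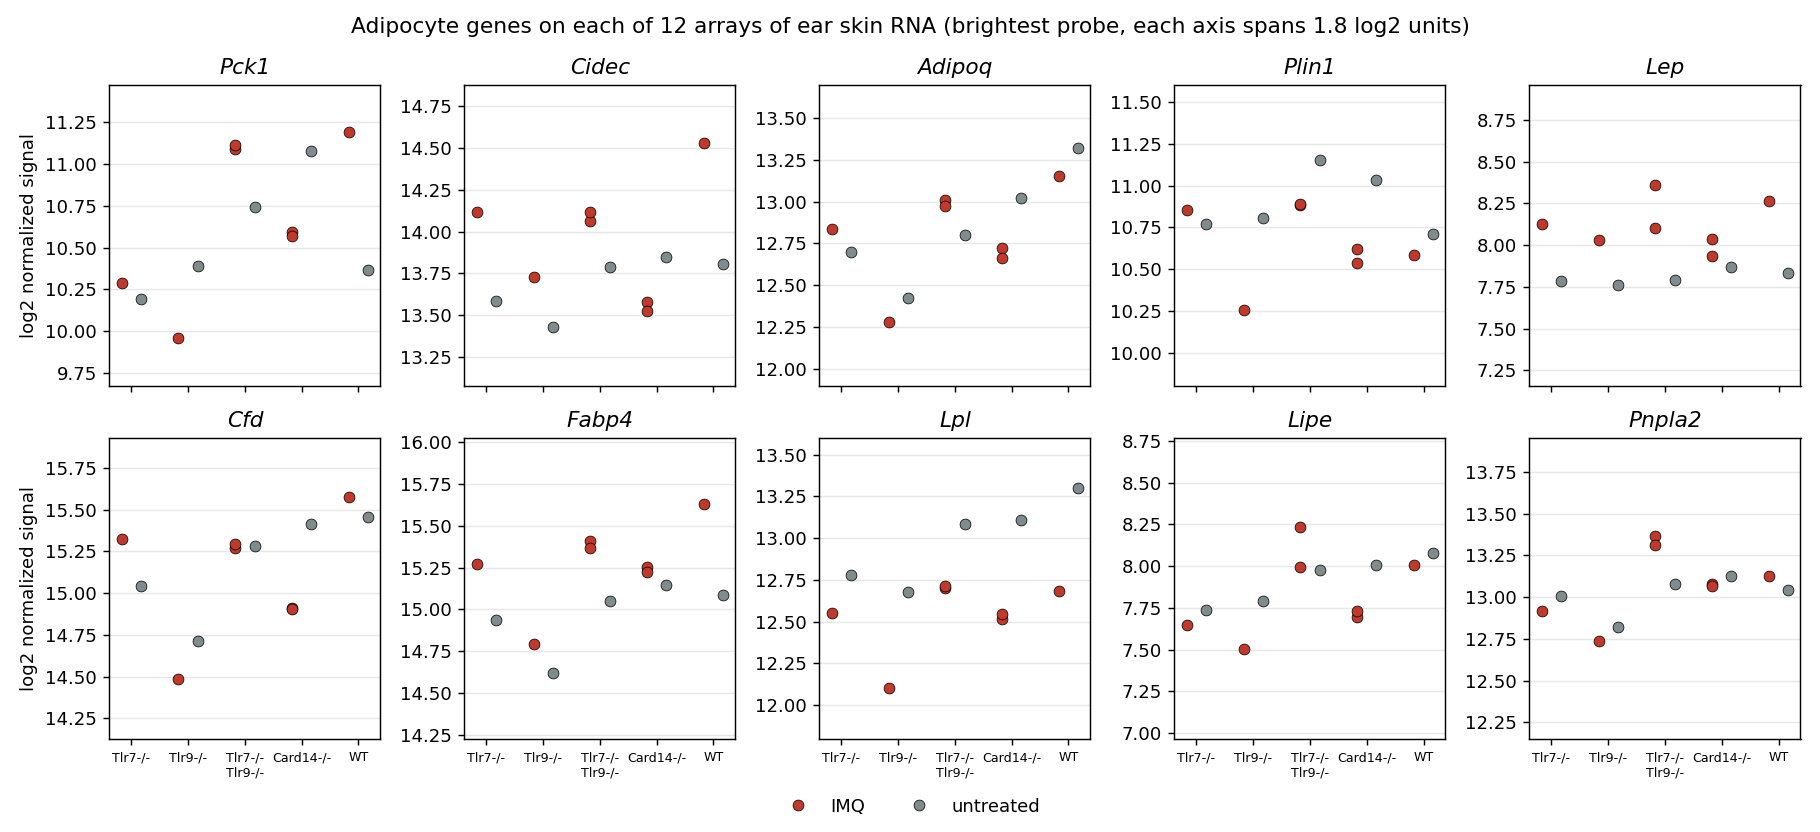
Log2 normalized signal of the 10 adipocyte genes on each of the 12 arrays, IMQ (red) left of untreated (grey) for each genotype, on the brightest probe of each gene. For Lpl each IMQ point lies under the untreated point of its genotype, for Lep each lies above it, and the Tlr9-/- point is the lowest for 8 genes after IMQ, 7 untreated and 5 in both.

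The role of Tlr7 in the response was addressed by comparing the 2 Tlr7-deficient genotypes with the 3 others. None of the 37125 probes passed (0%) in limma, while 1055 had an unadjusted p under 0.05 and 0 of these were adipocyte genes on their brightest probe. The response of all 10 genes was more positive or less negative without Tlr7, by 0.07 for Fabp4 to 0.38 for Adipoq, with a median of 0.25 beside 0.03 over all probes. That shared direction was lost when some genotypes were left out. The differences of Cidec and Fabp4 were negative without Card14-/-, and that of Pnpla2 without Tlr7-/-Tlr9-/-. Over the 3 genotypes with both arrays on 1 slide 4 of 10 were negative, Pck1, Lep, Fabp4 and Pnpla2, the lowest at -0.10. Adipoq averaged 0.17 in the Tlr7-deficient genotypes and -0.21 in the others, a difference with a 95% interval from -0.05 to 0.81. For Lpl the values were -0.30 and -0.59, with an interval of the difference from -0.13 to 0.70.

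The genotypes differed most for Pck1 and Cidec. Single responses were read in a limma fit of the 10 groups whose spread comes from the 4 repeat IMQ arrays, with single arrays assumed to vary like them, and a call also needed a difference of 1 on the log2 scale. No adipocyte gene was called on its brightest probe in any genotype. The share of all probes called was 7.29% in Tlr7-/-, 9.75% in Tlr9-/-, 5.5% in Tlr7-/-Tlr9-/-, 3.78% in Card14-/- and 15.6% in WT. An adjusted p under 0.05 without that size was reached by 3 of 10 genes in Tlr7-/-, 4 in Tlr9-/-, 5 in Tlr7-/-Tlr9-/-, 5 in Card14-/- and 4 in WT. By that rule alone the shares of all probes were 29.5% in Tlr7-/-, 38.2% in Tlr9-/-, 29.6% in Tlr7-/-Tlr9-/-, 18.8% in Card14-/- and 50% in WT.

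Pck1 read 10.29 in Tlr7-/-, 9.96 in Tlr9-/-, 11.09 and 11.12 in Tlr7-/-Tlr9-/-, 10.59 and 10.57 in Card14-/- and 11.19 in WT skin after IMQ. Untreated skin read 10.19 in Tlr7-/-, 10.39 in Tlr9-/-, 10.75 in Tlr7-/-Tlr9-/-, 11.08 in Card14-/- and 10.37 in WT. The response was 0.10 in Tlr7-/-, -0.43 in Tlr9-/-, 0.36 in Tlr7-/-Tlr9-/-, -0.50 in Card14-/- and 0.83 in WT. The untreated Card14-/- level was the highest of the untreated ones. Cidec read 14.12 in Tlr7-/-, 13.73 in Tlr9-/-, 14.06 and 14.12 in Tlr7-/-Tlr9-/-, 13.58 and 13.52 in Card14-/- and 14.53 in WT skin after IMQ. Untreated skin lay between 13.43 and 13.85. Its response was negative in Card14-/- alone, at -0.30, and was 0.72 in WT.

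Set against the WT response, that of Card14-/- was lower by 1.33 for Pck1 (95% interval from -1.55 to -1.10, limma adjusted p 0.0163) and by 1.02 for Cidec (from -1.29 to -0.75, adjusted p 0.0177). These were the 2 of 10 genes called in that comparison, in which 11.4% of all probes were called. Cfd and Fabp4 differed by -0.63 and -0.45 there, with limma adjusted p of 0.0215 and 0.0371, and did not reach a difference of 1. All Card14-/- IMQ arrays lay on slide 2 and the other arrays of the comparison on slide 1, so slide and genotype cannot be told apart after IMQ. Both calls rest on the spread between the 4 repeat arrays, and leaving out any 1 of them raised the adjusted p to between 0.061 and 0.0831.

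No adipocyte gene was called on its brightest probe in the other 3 differences, in which 2.6% of probes were called for Tlr7-/- minus WT, 0.385% for Tlr9-/- minus WT and 11.1% for Tlr7-/-Tlr9-/- minus WT. The Pck1 response of Tlr9-/- was lower than that of WT by 1.26 on 1 slide, with an interval from -1.50 to -1.02 and a limma adjusted p of 0.0570. The same value passed the threshold when only probes well above background on all 12 arrays were tested (limma adjusted p 0.0226). It did not pass under 75th percentile scaling or when any 1 of the repeat arrays was left out. These differences share the WT arrays.

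**Figure D2:**
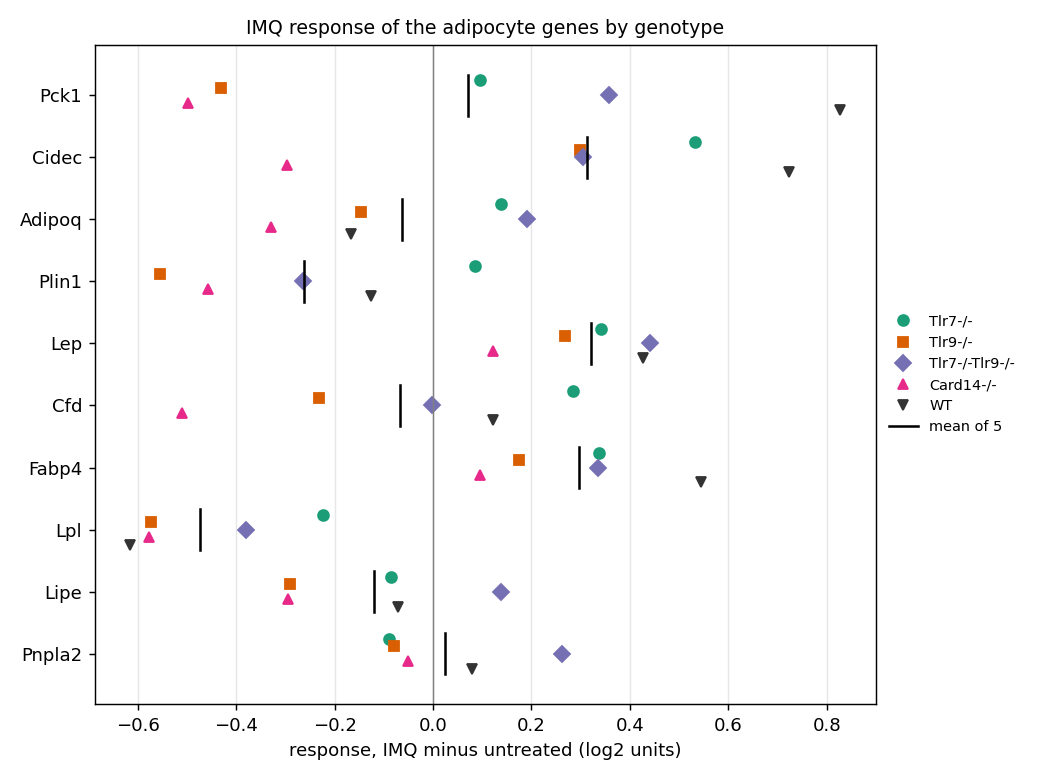
IMQ response (IMQ minus untreated, log2 units) of each adipocyte gene in the 5 genotypes, with the mean over genotypes as a bar. Pck1 spans 1.33 log2 units between Card14-/- and WT, whereas Lep spans 0.32 and stays above 0 in all 5.

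Some probes designed on clones or an Ensembl transcript gave other values than the RefSeq probes of their gene. The Lipe clone probe A_55_P2728901 read 8.40 in Tlr7-/-, 8.21 in Tlr9-/-, 6.75 and 6.90 in Tlr7-/-Tlr9-/-, 6.76 and 6.74 in Card14-/- and 8.91 in WT skin after IMQ, and from 7.04 to 7.30 untreated. It was called in Tlr7-/- (1.21), Tlr9-/- (1.16) and WT (1.61), with limma adjusted p from 0.00584 to 0.0152, while the brightest Lipe probe had responses from -0.29 to 0.14. Under normexp background the clone probe fell short of a difference of 1 in Tlr7-/- (0.96) and Tlr9-/- (0.88). In the deposited table it did so in Tlr9-/- (0.99). Without either Card14-/- repeat array the adjusted p of the clone probe was 0.0702 in Tlr7-/- and 0.0573 in Tlr9-/-, and without either Tlr7-/-Tlr9-/- repeat array it was 0.0562 in Tlr7-/-, so these calls were lost, while the WT call was kept. One Lpl probe of this kind, A_55_P2715720, was called in WT with a response of 1.04, and this call was lost without either Card14-/- repeat array. Its response in WT was 0.84 under normexp background and 0.96 in the deposited table, short of a difference of 1. For 3 Lpl probes of this kind and for the Lipe probe the response of Tlr7-/-Tlr9-/- was called as lower than that of WT, by 1.22 to 1.92. Under normexp background the Lpl probes A_55_P2738847 (-0.66) and A_55_P2900592 (-0.99) fell short of a difference of 1. In the deposited table A_55_P2738847 (-0.77) did so. With no filter on dim probes A_55_P2715720 was not called (limma adjusted p 0.0749). Leaving out any 1 of the 4 repeat arrays ended all 4 calls, with limma adjusted p from 0.0684 to 0.119. On these 4 probes the IMQ arrays of slide 1 lay above those of slide 2, a difference whose part in the result was not tested. The Plin1 clone probe A_55_P2728182 had a response of 0.94 in WT, beside -0.13 for the brightest Plin1 probe, and missed a difference of 1.

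**Figure D3:**
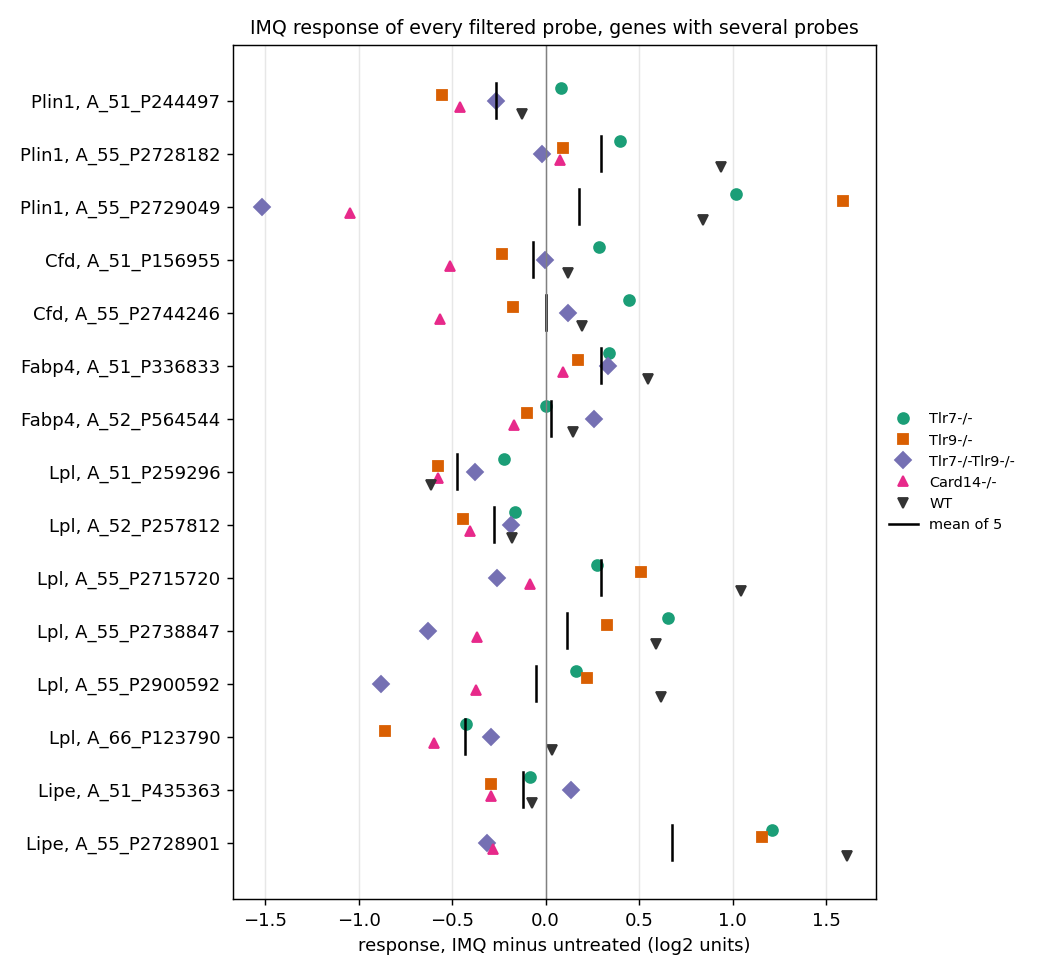
IMQ response (log2 units) of every probe that passed the filter for Plin1, Cfd, Fabp4, Lpl and Lipe, by genotype, with the mean as a bar. The Lipe clone probe splits into responses above 1 where the IMQ arrays lay on slide 1 and below 0 where they lay on slide 2. All untreated arrays lay on slide 1.

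On the brightest probe of each adipocyte gene, untreated genotypes differed by less than 1 log2 unit. There 0 of 10 genes were called when each genotype was set against the other 4. The untreated range was wider on the other Plin1 probes, 1.14 for A_55_P2728182 and 1.34 for A_55_P2729049. The latter was not well above background in untreated Tlr9-/- skin. The share of probes called was 0.482% for Tlr7-/-, 0.388% for Tlr9-/-, 0.374% for Tlr7-/-Tlr9-/-, 0.237% for Card14-/- and 1.02% for WT. Among the brightest probes Adipoq had the widest untreated range, with 12.70 in Tlr7-/-, 12.42 in Tlr9-/-, 12.80 in Tlr7-/-Tlr9-/-, 13.02 in Card14-/- and 13.32 in WT. The Adipoq level was lower in Tlr9-/- than in WT by 0.90. After IMQ Adipoq read 12.84 in Tlr7-/-, 12.28 in Tlr9-/-, 13.01 and 12.98 in Tlr7-/-Tlr9-/-, 12.72 and 12.66 in Card14-/- and 13.15 in WT.

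The arrays labelled Tlr9-/- held the lowest level of most adipocyte genes in both treatments. After IMQ they were lowest for 8 of the 10 genes, all but Cidec and Lep, beside 19% of all genes. Untreated they were lowest for 7 of 10, all but Pck1, Plin1 and Lipe, beside 18.3% of all genes. For 5 genes, Adipoq, Cfd, Fabp4, Lpl and Pnpla2, they were lowest in both, beside 7.39% of all genes. This comparison was added after the values had been seen. Cfd read 15.32 in Tlr7-/-, 14.48 in Tlr9-/-, 15.27 and 15.29 in Tlr7-/-Tlr9-/-, 14.91 on both arrays of Card14-/- and 15.58 in WT skin after IMQ. Untreated, Cfd read 15.04 in Tlr7-/-, 14.71 in Tlr9-/-, 15.28 in Tlr7-/-Tlr9-/-, 15.42 in Card14-/- and 15.45 in WT.

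In an additive fit of genotype and treatment, the difference of Tlr9-/- from the other 4 genotypes was -0.69 for Cfd, -0.59 for Adipoq, -0.52 for Pck1, -0.51 for Fabp4 and -0.45 for Lpl. This fit was also added after the values had been seen, so its p-values do not test the pattern independently. None of the 10 passed after adjustment, with limma adjusted p of at least 0.355, and the unadjusted p of Adipoq, Fabp4, Cfd and Lpl lay between 0.00401 and 0.00691. An unadjusted limma p under 0.05 was reached by 5 of 10 genes in Tlr9-/-, beside 7.25% of probes. In WT it was reached by 4 of 10, beside 11.4% of probes, and in each other genotype by 0. Of all probes 0.0189% were called. In the same fit 0 of 10 genes were called for the other genotypes, beside 0.00269% of probes in Tlr7-/- and in Card14-/-, 0.0215% in Tlr7-/-Tlr9-/- and 0.00539% in WT. The second genotype labelled as lacking Tlr9, Tlr7-/-Tlr9-/-, lay above the mean of the others for all 10 genes after IMQ and for 8 of 10 untreated. Its IMQ arrays lay on slide 2 and that of Tlr9-/- on slide 1, so slide and genotype cannot be told apart after IMQ. The untreated arrays all lay on slide 1. The part of Tlr9 loss in these levels was not tested. Untreated Tlr7-/- skin, like untreated Tlr9-/- skin, lay below the mean of the others for all 10 genes, with medians of -0.17 and -0.29, while after IMQ Tlr7-/- lay below it for 4 of 10.

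Lists of other cell types also had mostly negative differences in the arrays labelled Tlr9-/-, though 0 genes of any list were called. The difference was negative for 22 of 26 other adipocyte genes (median -0.25), 13 of 14 fibroblast and preadipocyte genes (median -0.33), 11 of 13 cartilage genes (median -0.62), 10 of 11 endothelial genes (median -0.27), 10 of 10 macrophage genes (median -0.21), 8 of 10 Schwann cell genes (median -0.31) and 12 of 13 sebaceous gland genes (median -0.19), beside 49.1% of all genes. The mean of the sebaceous and macrophage lists was lowest in Tlr9-/- after IMQ, and in Tlr7-/- among the untreated groups. The mean of the endothelial list was lowest in Tlr7-/-Tlr9-/- after IMQ, and in Tlr9-/- among the untreated groups. The difference of Tlr9-/- from the other genotypes was negative for 5 of 11 skeletal muscle genes. The fibroblast list had its lowest mean in Tlr9-/- skin in both treatments, within 11.65 to 12.37 over the IMQ groups and 12.02 to 12.78 over the untreated groups, and the cartilage list within 10.47 to 11.08 and 10.36 to 11.19. The part of these cell types in the adipocyte gene levels was not tested.

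**Figure D4:**
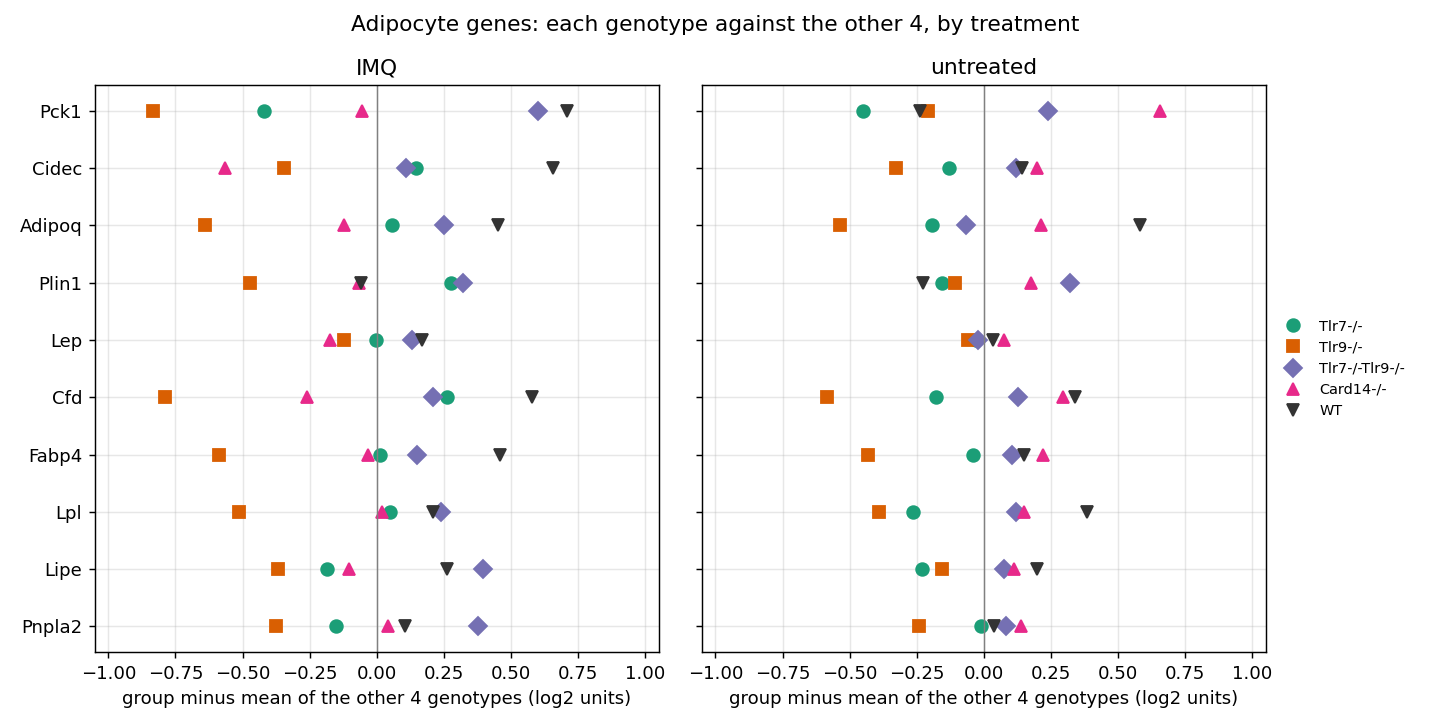
Difference of each genotype from the mean of the other 4 (log2 units) for the 10 adipocyte genes, after IMQ (left) and untreated (right). Tlr9-/- (squares) lies below 0 for all 10 genes in both treatments, from -0.83 to -0.06, Tlr7-/- (circles) does so in untreated skin, and Tlr7-/-Tlr9-/- (diamonds) in neither treatment.

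The 10 genes varied together over the 10 group means, with a median Pearson r of 0.59 over 45 pairs, 43 of them above 0. The points share pools, slides and the normalization, so this is a description. Adipoq and Cfd were the closest pair (r = 0.94), and Lep and Lpl the most opposed (r = -0.46). Among genes outside the 10, the pattern most like their mean profile over the 10 groups was that of H6pd, an enzyme of the endoplasmic reticulum that makes NADPH (r = 0.94), followed by Col10a1, a collagen of hypertrophic cartilage (r = 0.92), and Aqp2, a water channel (r = 0.92). The next were Cistr, Scgb2b15, Adcy5, Col9a3, Apoc4, Fcor and Bcat1, with r from 0.89 to 0.91.

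Of 14 genes that act with or on lipoprotein lipase and passed the filter 3 rose and 1 fell, and their median response was -0.03 on the log2 scale. Angptl4, an inhibitor of the lipase that is induced by fasting and hypoxia, averaged 13.62 ± 0.40 after IMQ and 11.83 ± 0.38 untreated (SD, n = 5 genotypes each), a response of 1.79 (SE 0.18, limma adjusted p 0.00876), 3.46-fold higher. Gpihbp1, the capillary protein that anchors the lipase, averaged 11.11 ± 0.43 after IMQ and 9.93 ± 0.34 untreated (SD, n = 5 genotypes each), a response of 1.18 (SE 0.15, adjusted p 0.011 in limma). Its rise was seen in all 5 genotypes, with the smallest response, 0.67, in Card14-/-. Apoc2, the activator of the lipase, rose by 0.48, and Lmf2, a gene related to the maturation factor of the lipase, fell by 0.26. Of 11 endothelial genes, Gpihbp1 among them, 7 rose and 1, Tek, fell, and the part of endothelial RNA in the Gpihbp1 rise was not tested. The largest of the other endothelial rises were those of the junction proteins Cldn5 (0.81) and Esam (0.70) and of Egfl7 (0.67).

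Of 18 lipolysis and lipid droplet genes 2 rose and 5 fell. Hilpda, a droplet protein that inhibits adipose triglyceride lipase, averaged 12.71 ± 0.33 after IMQ and 11.18 ± 0.19 untreated (SD, n = 5 genotypes each), a response of 1.53 (SE 0.18, limma adjusted p 0.0097). Fitm2, a protein of droplet formation, rose by 0.35 and its relative Fitm1 fell by 0.56. G0s2, another inhibitor of that lipase, fell by 0.46 and the droplet coat protein Plin3 fell by 0.31. The adrenergic receptor Adrb1 was well above background on 5 of 5 untreated arrays and on 4 of 7 IMQ arrays, and averaged 4.38 after IMQ and 5.82 untreated, a response of -1.44 (SE 0.27, limma adjusted p 0.0196). With the arrays below background set at their floor it was at least 2.43-fold lower.

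**Figure D5:**
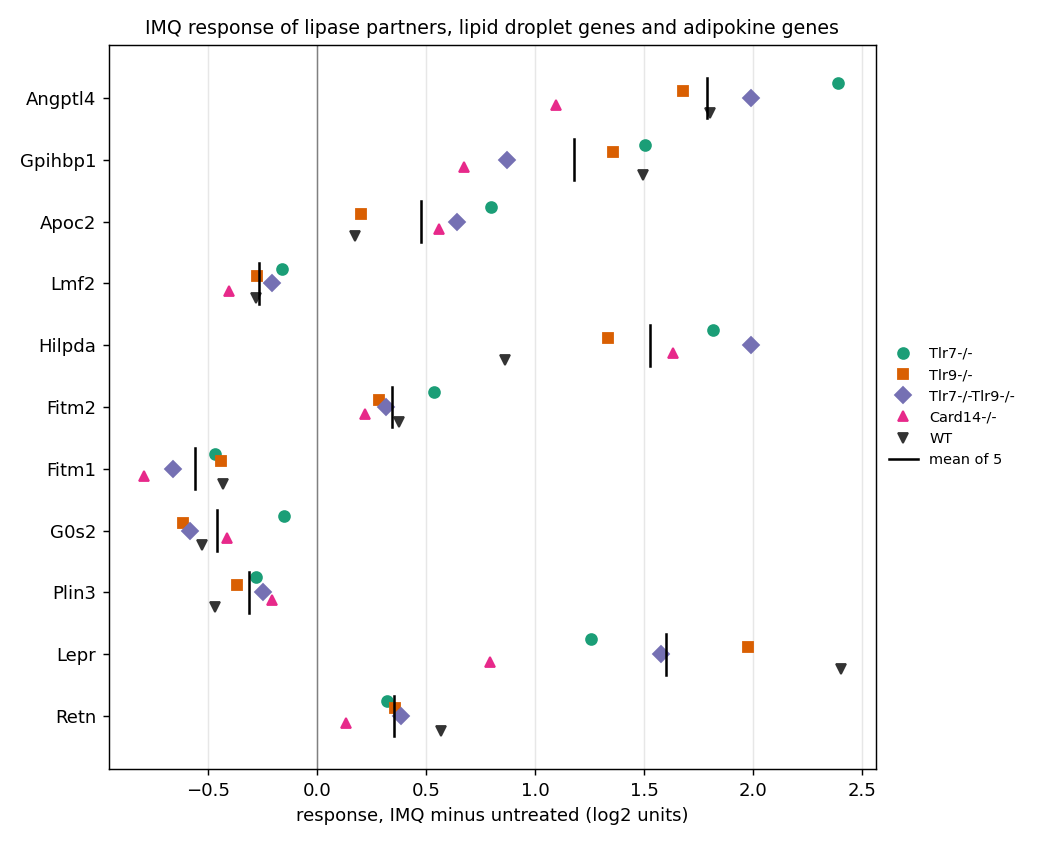
IMQ response (log2 units) by genotype of named genes called in the average response among lipase partners, lipid droplet genes and adipokine genes, with the mean as a bar. Angptl4, Hilpda, Gpihbp1 and Lepr lie above 0.6 in all 5 genotypes.

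Of 13 adipokine and receptor genes that passed the filter 3 rose. Lepr, the leptin receptor, rose by 1.60 on its brightest probe (SE 0.24, limma adjusted p 0.0129), while its 3 other probes averaged 0.19 to 0.49 and 1 of them was called. The adipokine Retn rose by 0.35. Of 26 other adipocyte genes 2 rose, Adig by 0.38 and Retn, and 5 fell. The falls were Lgals12 (-0.63), Acvr1c (-0.50), Trarg1 (-0.48) and Aoc3 (-0.46), and next Dgat2. Lgals12 is a galectin of lipid droplets, Dgat2 makes triglyceride and Aoc3 is an amine oxidase of the fat cell surface. The median response of the list was -0.11.

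Of 18 lipogenesis and triglyceride synthesis genes 1 rose and 3 fell, with Acacb at 0.63, Scd2 at -0.60, Dgat2 at -0.43 and Srebf1 at -0.29. Of 16 glyceroneogenesis, fasting and glucocorticoid genes 5 rose and 1 fell, with a median of 0.29. The largest rises were the glucocorticoid-induced Fkbp5 (0.69) and Tsc22d3 (0.66), the transcription factor Cebpd (0.64) and Irs2 (0.57). Pck2, the mitochondrial relative of Pck1, fell by 0.31. Of 14 fibroblast and preadipocyte genes 3 fell and 0 rose, with the preadipocyte factor Dlk1 at -1.26, Pdgfra at -0.45 and Dcn at -0.41. Among 24080 genes on 1 probe each 9.9% rose and 14.4% fell, with a median of -0.08.

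The remaining lists are given by their counts. Of 5 fatty acid binding protein genes 1 rose (Fabp6, 0.50) and 1 fell, Fabp7, which was above background on 6 of 12 arrays. Of 9 brown and beige fat genes 1 rose (Elovl3, 0.57) and 1 fell (Otop1, -0.67). Of 13 sebaceous gland genes 2 rose, Soat1 and Elovl3, and 2 fell, Dgat2l6 and Awat2. Of 10 macrophage genes 2 rose, C1qb and Adgre1, and Mertk fell. Of 13 cartilage genes Hapln1 rose, and Matn3 and Comp fell. Of 11 skeletal muscle genes 5 fell and of 10 Schwann cell genes 6 fell, led by Myh1 (-0.89) and Sox10 (-1.24), and 0 rose in either list.

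Promoter windows of 300 bases, 250 of them before the start of the gene, were listed by RefSeq on GRCm38.p6 for 8 of the 10 genes, in 10 windows. Lpl and Fabp4 were not listed. The C/EBP palindrome TTGCGCAA, which reads the same on both strands, was found in the window of Lep, which rose, and in 0.183% of 32851 windows. The related TTGCNNCAA, the cyclic AMP element TGACGTCA and its variant TGACGCAA, TATAAA, the PPAR/RXR direct repeat and the glucocorticoid element were searched on both strands and were in none of the 10 windows. They were in 2.08%, 1.79%, 0.49%, 13.6%, 0.0396% and 0.0487% of all windows. TTACGTCA, a variant of the cyclic AMP element searched on both strands after the Pck1 window had been read, was found in Pck1 and in 0.499% of all windows. The stretches before the start are shown for these 2 genes with the match in capitals.
Lep upstream, chr6:29059971-29060220, plus strand: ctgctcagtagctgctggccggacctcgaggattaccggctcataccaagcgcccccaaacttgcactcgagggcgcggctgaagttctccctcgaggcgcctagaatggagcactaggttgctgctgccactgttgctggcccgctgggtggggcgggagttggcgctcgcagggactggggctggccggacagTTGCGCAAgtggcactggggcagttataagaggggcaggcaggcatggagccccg
Pck1 upstream, chr2:173152823-173153072, plus strand: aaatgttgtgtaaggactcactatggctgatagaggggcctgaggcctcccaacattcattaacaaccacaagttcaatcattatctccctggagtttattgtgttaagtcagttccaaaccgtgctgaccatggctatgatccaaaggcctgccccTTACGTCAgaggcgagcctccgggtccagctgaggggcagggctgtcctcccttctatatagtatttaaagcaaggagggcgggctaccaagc
The Lep match begins 55 bases and the Pck1 match 93 bases before the start.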

How the data were processed

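Ear RNA on 12 arrays was assigned to 10 groups by the labels. The authors' scanner files, made by Agilent Feature Extraction 10.7.3.1 per the file headers (version 10.5.1.1 per the submitters' processing notes), hold intensity per spot after background subtraction within the array. The deposited table in log2 units, normalized with limma by the authors per the series' design text, was used as an alternative.

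Log2 values of the processed signals were quantile normalized with limma 3.58.1 in R 4.3.3. Of 56605 probes, 235 with an outlier flag were left out, and 37125 were tested, those well above background on 2 arrays or more. Each gene was read on the probe with the highest mean. The average response was fitted with genotype as a block (4 residual degrees of freedom) and Tlr7 dependence on 5 responses (3). Single responses, untreated comparisons and differences from WT were fitted on the 10 groups (2, from the repeat arrays). The additive fit of genotype and treatment, for each genotype against the other 4, used the 10 group means (4). Calls needed a two-sided adjusted p under 0.05 over all probes, and in the fit of the 10 groups a difference of at least 1. The fit was tested on simulated data. The members and the 15 gene lists were chosen with earlier results of these data known. For the skeletal muscle and Schwann cell genes only the largest fall is named. From each other list the up to 4 largest called changes per direction are named, and as similar patterns the 10 most correlated genes. A gene that this rule also selects is not reported here. The median SD was 0.068 between repeat arrays and 0.157 between untreated genotypes, and the number of arrays limits the precision. Alternatives covered scaling, background, filters, probes, slides and left-out arrays. Tables were made with Python, numpy and pandas.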

Additional observations from a re-analysis of the deposited data

Results flagged for a closer look

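Responses of single probes differed between genotypes by the test of the difference itself. The response of Card14-/- was below that of WT for Pck1 (-1.33), Cidec (-1.02) and the Lipe probe A_55_P2728901 (-1.89). The response of Tlr7-/-Tlr9-/- was below that of WT for the same Lipe probe (-1.92) and for the Lpl probes A_55_P2900592 (-1.50), A_55_P2715720 (-1.31) and A_55_P2738847 (-1.22). In each of these 7 cases the knockout IMQ arrays lay on slide 2 and all other arrays on slide 1, so slide and genotype cannot be told apart, and each of the 7 calls was lost when any 1 of the 4 repeat arrays was left out. Groups of 1 or 2 arrays are too small for a search for single outlying arrays.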

How the results depend on the processing

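The count of adipocyte genes called in the average response was 2, and became 4 with genotype and slide as blocks, 0 over the genotypes with both arrays on 1 slide, and 1 with the first repeat only. Leaving out 1 genotype pair gave 0 to 3, with 880 to 7608 of all probes called instead of 8963, and slide blocks gave 18469. With slide blocks the response is estimated from the genotypes with both arrays on 1 slide, Tlr7-/-, Tlr9-/- and WT. The repeat arrays then enter singly, so their spread, which may be technical, adds to the residual of that fit. Fabp4 passed under 75th percentile scaling (0.45, adjusted p 0.0268), normexp background (0.31), the deposited table (0.36), probes above background on all arrays and slide blocks (0.35). Cidec passed with slide blocks (0.52) and without the Card14-/- pair (0.46). Pck1 was the 1 gene called in Tlr9-/- minus WT under normexp background, the deposited table, no filter on dim probes, probes above background on all arrays and 1 probe per gene, instead of 0. In Card14-/- minus WT 1 gene in place of 2 was called under 75th percentile scaling, normexp background and the deposited table, where Cidec fell short of a difference of 1, and 0 without any 1 repeat array. In the other comparisons the count stayed at 0 under the alternatives run. The cause of these changes was not tested. No value of a called gene changed sign. Over all probes, the calls in single genotypes were 2707, 3621, 2043, 1405 and 5784 in Tlr7-/-, Tlr9-/-, Tlr7-/-Tlr9-/-, Card14-/- and WT, and 1161, 1343, 619, 642 and 2470 under normexp background, or 1632, 1914, 936, 838 and 3430 in the deposited table. Card14-/- minus WT had 4221 calls and 2134 under normexp background, and Tlr9-/- minus WT had 143 and between 0 (75th percentile scaling) and 1776 (no filter on dim probes). Without any 1 repeat array, 0 probes were called in the untreated comparisons, the differences from WT and the responses of Tlr7-/-Tlr9-/- and Card14-/-. Without either Card14-/- repeat 0 were called in Tlr7-/- and Tlr9-/- too, and without either Tlr7-/-Tlr9-/- repeat 175 in Tlr7-/-. Signal over background limits Adrb1, Fabp7, Matn3, Apoc4 and Cistr, which were not well above background on all 12 arrays. It also limits the Lipe probe A_51_P174133, which did not pass the filter. The Plin1 probe A_55_P2729049 passed but was well above background on 7 of 12 arrays. The average response pairs the IMQ and untreated levels within each genotype, and the following is about replicate numbers only. No paired analysis was possible because the untreated groups have 1 array each, so the groups compared share fewer than 2 replicate numbers.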
